A study of Mus musculus with 69 samples.

Results

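Bone marrow-derived macrophages (BMDMs) that lack the transcription factor EGR2 were followed for 24 hours after interleukin-4 (IL-4). The response was taken as the difference between 2 libraries of LyzM-Cre Egr2 fl/fl BMDMs given IL-4 for 24 hours and 2 libraries of the same genotype under basal conditions. These are 4 of the 69 samples of the series, chosen by genotype and time of treatment and by no measured value. The cells are called Egr2-MKO here.

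IL-4 is the cytokine that drives the alternative state of macrophages, which is known from tissue repair, allergy and worm infection. It binds a receptor at the cell surface that activates Janus kinases, and these phosphorylate STAT6, which enters the nucleus and switches on genes. EGR2 is a zinc finger factor whose gene is itself turned on by IL-4, and it is regarded as a later layer of the same programme.

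The bone marrow came from 8- to 12-week-old female mice, and the cells were differentiated with M-CSF. The IL-4 dose was 20 ng/ml. The comparison cells, called Egr2-WT, were Egr2 fl/fl BMDMs without Cre, with 2 basal and 2 IL-4 libraries at 24 hours. Both genotypes thus carried the floxed alleles, and LyzM-Cre was present in Egr2-MKO only. LyzM-Cre acts in myeloid cells, and cells that escaped deletion cannot be seen in RNA of the whole culture. Both genotypes were also measured after 1 and 6 hours, which makes 16 libraries in all. Expression is given in TPM (a measure of transcript abundance scaled for gene length and sequencing depth), and changes are differences of log2(TPM + 1) with the standard error (SE) of the fit. Adding 1 TPM makes the change of genes expressed near 1 TPM smaller than their ratio.

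Sequencing depth ran from 4.69 M to 32.9 M tags over the 16 libraries, where M is 1e+06. The second basal Egr2-MKO library was the one with 4.69 M, against 12.3 M in the first and 12.2 M and 9.54 M in the 24-hour libraries. The correlation between replicates across genes was lowest, at 0.971, in Egr2-MKO after 6 hours of IL-4. Of 24537 genes in the table, 12079 reached 1 TPM in at least 2 libraries and were tested with limma in a single model of the 16 libraries. Calls of induction and repression required a change over 2-fold and an adjusted p under 0.05 (Benjamini-Hochberg over the 12079 genes). Whether the replicates came from separate mice or cultures is not given, so p-values measure the spread between these libraries.

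Egr2 RNA, from the gene at chr10:67537869-67542188 (mm10), was low in every Egr2-MKO library. Basal Egr2-MKO cells had 0.859 and 0.854 TPM, and the 24-hour cells 4.72 and 7.05 TPM. In Egr2-WT cells the values were 23.6 and 21.3 TPM under basal conditions and 101 and 99.5 TPM after 24 hours. No Egr2-MKO library reached the level of a basal Egr2-WT library. The remaining Egr2 RNA rose after IL-4 by 1.87 on the log2 scale (SE 0.18, limma adjusted p = 7e-06), and the rise in Egr2-WT was 2.11. Egr1, a zinc finger factor of the same family, also rose in Egr2-MKO, from 0.273 and 0.661 TPM to 3.55 and 5.02 TPM (log2 change 1.85, limma adjusted p = 0.00034). Its log2 change in Egr2-WT was 0.88, and the difference of 0.97 between the genotypes did not pass the test (limma adjusted p = 0.15). Egr3 stayed under 1 TPM in all libraries and Egr4 was listed at 0, so neither was tested. Of the corepressors that bind EGR proteins, Nab1 and Nab2 had log2 changes of 0.12 and 0.05 in Egr2-MKO and neither passed the test. In Egr2-WT the log2 change of Nab1 was -0.63 (limma adjusted p = 1.1e-05). Its difference of 0.75 between the genotypes passed the test (SE 0.09, limma adjusted p = 0.00021) but was under 2-fold. That of Nab2 did not pass (-0.01, limma adjusted p = 0.99).

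Macrophage markers were high in all 4 Egr2-MKO libraries, and all 10 on the list were tested. Csf1r, the receptor for M-CSF, had 1058 and 1066 TPM in basal cells and 913 and 828 TPM after IL-4. Summed over the list, the markers gave 21632 to 21707 TPM under basal conditions and 13793 to 14365 TPM after IL-4, and Lyz2 made up most of the sum. Markers of B cells summed to at most 5.31 TPM, those of T and NK cells to at most 3.01 TPM and those of mast cells and basophils to at most 3.85 TPM in these 4 libraries. Those of fibroblasts summed to at most 1.0 and of erythroid cells to at most 0.377 TPM. The 8 dendritic cell markers went from 3.71 to 4.0 TPM under basal conditions to 6.69 to 11.9 TPM after IL-4, mostly through Batf3, and the 5 eosinophil markers from 1.01 to 1.21 TPM to 2.09 to 2.41 TPM. In Egr2-WT the dendritic cell markers went from 2.51 to 3.48 TPM to 11.1 to 11.3 TPM. The part of such cells in the results was not tested. Ms4a1, Pax5, Ncr1, Cd209a and Il5ra were at 0 in all 4. The 12 markers of neutrophils and their precursors summed to 195 to 198 TPM under basal conditions and 152 to 155 TPM after IL-4, of which Mmp8 and Csf3r, which macrophages also express, made up most. Ly6g, which marks neutrophils, reached at most 0.105 TPM. Less RNA per cell and fewer cells of a type cannot be told apart in these data.

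Without EGR2, IL-4 induced 333 genes (2.76% of those tested) and repressed 250 (2.07%) after 24 hours. At an adjusted p under 0.05 with no minimum fold, 1962 genes (16.2%) were higher and 1426 (11.8%) lower. The median induced gene went from 6.49 to 26.3 TPM and the median repressed gene from 18.9 to 6.62 TPM. Changes of more than 4-fold were found for 89 induced and 31 repressed genes. Among the called genes, 47 induced and 19 repressed genes stayed under 5 TPM in all 16 libraries, and 10 induced and 10 repressed entries were microRNA genes, which a library of polyadenylated RNA measures poorly.

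The 10 largest rises were Mgl2, Ccl7, Arg1, Mmp13, Ccl12, Msx3, Ccl8, Ccl2, Slc7a2 and Socs1. Mgl2, a lectin that is a standard mark of alternatively activated macrophages, went from 1.69 and 1.0 TPM in basal Egr2-MKO cells to 259 and 286 TPM. Arg1, the arginase that turns arginine into ornithine and urea, went from 30.8 and 46.0 TPM to 2883 and 3101 TPM, a 77.9-fold rise of the mean. Slc7a2, a transporter that brings arginine into the cell, went from 3.81 and 2.79 TPM to 97.7 and 111 TPM. The rule for choosing the 10 required basal and IL-4 libraries that do not overlap. The log2 changes were 6.88 for Mgl2 (SE 0.20), 6.27 for Arg1 (SE 0.24) and 4.62 for Slc7a2 (SE 0.14).

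Ccl2, Ccl7, Ccl8 and Ccl12, neighbouring genes of chemokines that attract monocytes, were all among these 10. Ccl7 went from 8.55 and 6.08 TPM to 598 and 710 TPM. Ccl12 went from 0.526 and 1.45 TPM to 139 and 127 TPM. Ccl8 went from 25.4 and 21.7 TPM to 972 and 950 TPM. Ccl2 went from 16.4 and 19.8 TPM to 437 and 599 TPM, a 28.7-fold rise of the mean.

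Mmp13, a collagenase, rose from 1.82 and 1.99 TPM to 177 and 263 TPM (log2 change 6.22, SE 0.16, limma adjusted p = 7.8e-11). Msx3, a homeobox factor, was at 0 and 0.169 TPM under basal conditions and reached 57.7 and 60.4 TPM. Socs1, which blocks Janus kinases and so limits IL-4 signalling, went from 3.37 and 4.92 TPM to 125 and 123 TPM. Its level had been 335 and 313 TPM after 1 hour and 179 and 179 TPM after 6 hours, so the 24-hour value followed an earlier peak.

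The 10 largest falls were Cx3cr1, Fpr1, Hp, Fpr2, Gsta3, Pilra, Mgst2, Slc40a1, Clec4n and Ptges. Cx3cr1, the receptor for fractalkine, went from 22.6 and 23.7 TPM in basal Egr2-MKO cells to 0.073 and 0.293 TPM. Fpr1 and Fpr2, receptors for formylated peptides from bacteria, fell as well. Fpr1 went from 73.1 and 64.5 TPM to 2.89 and 2.92 TPM, and Fpr2 from 40.9 and 42.0 TPM to 2.74 and 1.28 TPM. Clec4n, the lectin receptor dectin-2 for fungal sugars, was the most abundant of the 10 and went from 295 and 291 TPM to 45.6 and 39.2 TPM. The basal and IL-4 libraries were apart for all 10 genes, as the rule for choosing them required. Slc40a1, the iron exporter ferroportin, went from 49.7 and 48.7 TPM to 6.23 and 6.42 TPM. Hp, which codes for the haemoglobin-binding protein haptoglobin, went from 43.2 and 48.8 TPM to 0.653 and 3.95 TPM, and the spread between its IL-4 libraries gave it the largest SE of the 10 (log2 change -4.04, SE 0.34).

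**Figure D1:**
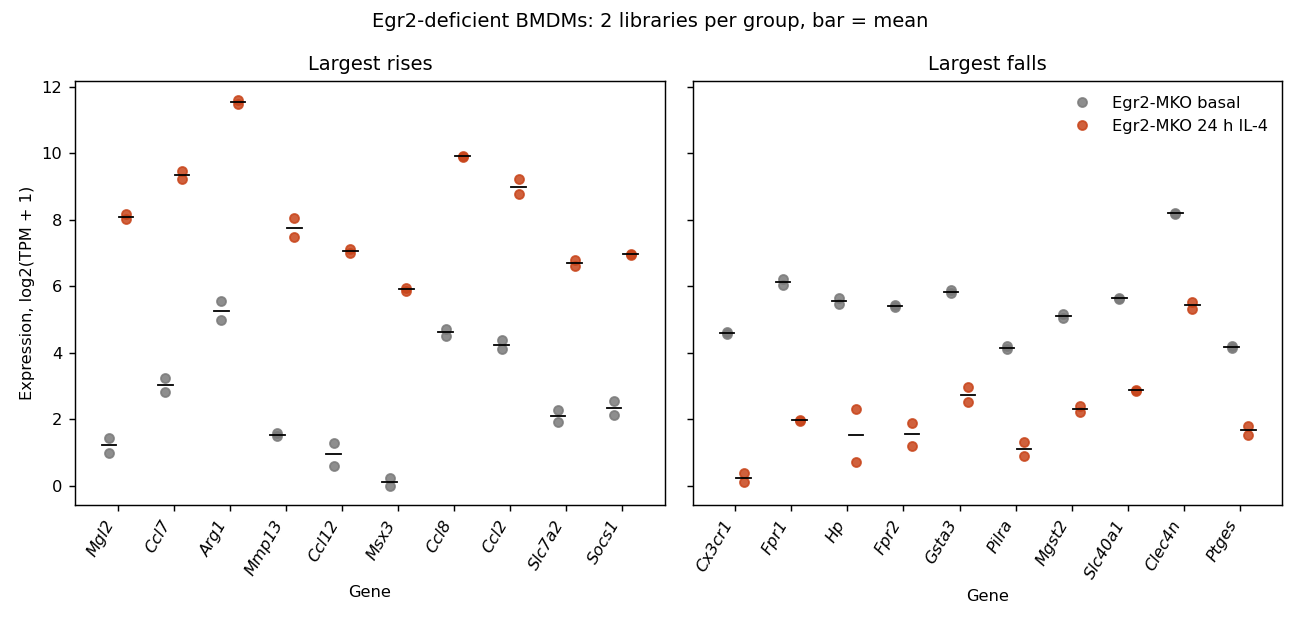
Expression (log2(TPM + 1)) of the 10 genes with the largest rises and the 10 with the largest falls in Egr2-MKO BMDMs. Grey points are the 2 basal libraries, orange points the 2 libraries after 24 hours of IL-4, and bars are means; basal and IL-4 libraries are apart for every gene, as the rule for choosing them required, from Msx3, with 0 and 0.169 TPM under basal conditions, to Arg1, with 2883 and 3101 TPM after IL-4.

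The promoters of the genes with the largest changes were searched for a STAT6 site, TTC and GAA with any 4 bases between, and for the core of the EGR site, GCGNGGGCG, on both strands of the 250 bases before the start (RefSeq, GRCm38.p6). Promoters were found for 20 of the 30 genes with the largest rises, falls and differences between genotypes. No promoter among them held the EGR core, and 2 held a STAT6 site. Both are shown with the site in capitals, as the rule was to show each promoter with a match. Their genes, Ptges and Rbp4, are described further on. The Ptges stretch is chr2:30903460-30903519 and the Rbp4 stretch is chr19:38125407-38125466, both on the minus strand and written 5′ to 3′. The Rbp4 site lies before a start at position 38125321, which is upstream of the gene's end at position 38124811 in the expression table.
Ptges: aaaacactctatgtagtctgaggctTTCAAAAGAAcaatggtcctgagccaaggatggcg
Rbp4: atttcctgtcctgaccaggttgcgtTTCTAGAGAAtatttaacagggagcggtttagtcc
Over all genes tested with a promoter in the table (9086), 5.73% held the STAT6 site and 10.1% the EGR core. The STAT6 site was in 8.61% of 244 genes induced in Egr2-MKO and in 8.05% of 174 repressed genes. The EGR core was in 10.7% of the induced and 9.2% of the repressed genes. Over all 27025 genes of the promoter table the shares were 6.76% and 5.33%. These are matches of letters and were not tested, and enhancers were not searched.

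Alternative activation markers made up the list with the most induced genes. Of 23 listed 20 were tested, and 12 of these rose in Egr2-MKO, none was called repressed and 8 were not called, with a median log2 change of 3.62 against 0.05 over all genes. In Egr2-WT 16 rose, with a median of 3.27 against -0.05. With a pseudocount of 5 TPM 12 rose in Egr2-MKO and 13 in Egr2-WT, and with 0.1 TPM 14 and 16 did. This list, like the others below, was drawn up with earlier results of these data known, and it names genes already known to follow IL-4. Over all genes tested, 2.76% were called induced and 2.07% repressed in Egr2-MKO, and 2.31% and 2.04% in Egr2-WT. The difference of the responses was called higher in Egr2-MKO for 1.13% of all genes and lower for 0.77%. The counts of this and the following lists stand beside these shares. Tmem26, a membrane protein, went from 3.62 and 3.44 TPM to 98.6 and 105 TPM in Egr2-MKO. Ch25h, the enzyme that makes 25-hydroxycholesterol, went from 0.896 and 0.787 TPM to 33.5 and 53.7 TPM. Their log2 changes of 4.50 and 4.56 were close to those in Egr2-WT, 4.70 and 4.75, and neither difference passed the test (limma adjusted p = 0.35 and 0.68).

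Of these markers, 3 had a lower response in Egr2-MKO (Rbp4, Ear2 and Tgm2) and 2 a larger one (Mgl2 and Clec10a), of which Ear2, Tgm2 and Clec10a are named because of their values. Tgm2, a transglutaminase, went from 62.2 and 65.7 TPM to 36.9 and 38.3 TPM in Egr2-MKO and from 68.0 and 70.5 TPM to 114 and 109 TPM in Egr2-WT. The genotypes thus moved apart by -1.43 on the log2 scale (limma adjusted p = 1e-06). Ear2, a ribonuclease with close copies among which reads may be split, was listed at 0 in both 24-hour Egr2-MKO libraries and at 2.16 and 3.73 TPM in Egr2-WT, and its difference missed the threshold without any 1 of the 8 libraries (limma adjusted p = 0.0609 to 0.156). Clec10a, a lectin related to Mgl2, went from 4.63 and 4.42 TPM to 86.2 and 88.9 TPM in Egr2-MKO and reached 33.4 and 32.9 TPM in Egr2-WT.

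Retnla and Fn1 were called in Egr2-WT but not in Egr2-MKO, and other Egr2-MKO libraries bear on both. Retnla, a secreted protein used as a mark of alternative activation, had 0.629 and 0.815 TPM in basal Egr2-MKO cells and 4.60 and 4.95 TPM after 24 hours. Fn1, which codes for fibronectin, had 2.78 and 1.07 TPM and then 4.70 and 3.86 TPM. In the Egr2-MKO libraries at 6 hours, Retnla stood at 24.1 and 254 TPM and Fn1 at 28.8 and 160 TPM, and Fn1 had 72.9 and 0.529 TPM at 1 hour. These libraries share the estimate of the spread. With the basal and 24-hour libraries alone, the difference between genotypes passed the test for Retnla (log2 difference -1.44, limma adjusted p = 0.0039, against 0.43 with all libraries) and for Fn1 (-3.00, limma adjusted p = 0.0038 against 0.34). Retnla then also counted as induced in Egr2-MKO (limma adjusted p = 0.002). Both genes were chosen after their values were seen.

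Of the 20 genes tested for the IL-4 receptor and STAT6 pathway, 4 rose, 1 fell and 15 were not called in Egr2-MKO, with a median log2 change of 0.09. Stat6 itself had 113 and 111 TPM under basal conditions and 111 and 104 TPM after IL-4, which did not pass the test. Inhibitors of cytokine receptor signalling were 3 of the 4 that rose. Cish went from 1.42 and 1.89 TPM to 23.1 and 22.4 TPM, and Socs2 from 0.045 and 0.093 TPM to 2.24 and 2.57 TPM, beside Socs1 above. The fourth was Jak2, a Janus kinase, named because of its values, which went from 28.4 and 27.5 TPM to 77.5 and 78.4 TPM. Il13ra1, the chain that pairs with the IL-4 receptor to form the receptor for IL-13, fell from 14.5 and 13.4 TPM to 2.94 and 2.52 TPM. In Egr2-WT, Il13ra1 went from 13.8 and 15.4 TPM to 9.16 and 8.45 TPM, and the difference of the responses was -1.33 (SE 0.17, limma adjusted p = 0.00029). Il4ra, the IL-4 receptor itself and also named for its values, had a larger response in Egr2-MKO, with 36.9 and 35.0 TPM before and 69.0 and 66.2 TPM after IL-4, against 33.5 and 33.1 and then 30.0 and 27.5 TPM in Egr2-WT (difference 1.10, limma adjusted p = 6.3e-06).

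Among 31 transcription factors of macrophage activation, 9 rose, 1 fell and 21 were not called in Egr2-MKO. The difference of the responses was called higher in Egr2-MKO for 2 and lower for none. At an adjusted p under 0.05 with no minimum fold, 5 were higher and 4 lower, where 8.78% and 3.85% of all genes were. When libraries were rescaled by the median of gene ratios, 2 were called higher and 2 lower. Irf4, a factor needed for alternative activation, went from 1.25 and 0.731 TPM to 6.31 and 7.17 TPM in Egr2-MKO and from 1.52 and 1.74 TPM to 18.2 and 18.4 TPM in Egr2-WT. The response of Irf4 was lower in Egr2-MKO by -0.90 on the log2 scale (limma adjusted p = 0.0048), which is under the 2-fold limit for a call. With a pseudocount of 0.1 TPM the Irf4 difference was -0.72 and did not pass the test (limma adjusted p = 0.0989). Klf4, a zinc finger factor that works with STAT6, went from 11.3 and 11.9 TPM to 35.0 and 37.5 TPM, and the difference between its log2 changes, 1.56 in Egr2-MKO and 1.59 in Egr2-WT, did not pass the test (-0.03, SE 0.15, limma adjusted p = 0.95). Nfil3, a basic leucine zipper factor, rose from 9.87 and 10.7 TPM to 43.3 and 41.4 TPM. Tfec, a relative of MITF, rose from 21.5 and 23.4 TPM to 73.6 and 82.6 TPM.

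Of 24 genes tested for the PPAR, RXR and LXR receptors and lipid handling, 2 rose, 1 fell and 21 were not called. Pparg, the lipid-sensing nuclear receptor PPARγ, went from 9.58 and 9.78 TPM to 28.2 and 29.2 TPM, and Cd36, the scavenger receptor that takes up fatty acids, from 285 and 255 TPM to 610 and 631 TPM. In Egr2-WT after IL-4 these stood at 47.3 and 49.6 TPM for Pparg and 975 and 996 TPM for Cd36. The difference of the responses was under the 2-fold limit for both, at -0.39 for Pparg and -0.32 for Cd36 (limma adjusted p = 0.021 each). The difference missed the threshold for Pparg without any 1 of the 8 libraries except the second 24-hour Egr2-MKO and the first 24-hour Egr2-WT ones (limma adjusted p = 0.0503 to 0.0844), and for Cd36 without 5 of the 8 (limma adjusted p = 0.0507 to 0.081). Apoc2, an apolipoprotein, went from 26.9 and 32.1 TPM to 11.5 and 9.36 TPM (log2 change -1.42, limma adjusted p = 0.0068), and this call was lost without the second basal Egr2-MKO library or without the second 24-hour one (limma adjusted p = 0.0576 and 0.0534). Of 23 genes of cholesterol synthesis, none was called in either direction, and at an adjusted p under 0.05 with no minimum fold 4 were higher and 1 was lower, where 16.2% and 11.8% of all genes were.

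For arginine transport and polyamine synthesis, 3 of 19 rose and 1 fell. Beside Arg1 and Slc7a2, Slc7a1, another arginine carrier, went from 6.22 and 6.04 TPM to 13.3 and 16.1 TPM. Ass1, which rebuilds arginine from citrulline, fell from 41.6 and 43.2 TPM to 16.9 and 19.4 TPM. No member of the list had a called difference between the genotypes. Arg1 reached 3479 and 3411 TPM and Slc7a2 203 and 187 TPM in Egr2-WT after IL-4, so Slc7a2 ended lower in Egr2-MKO, while the log2 changes of 4.62 and 4.67 differed by -0.05 (SE 0.19, limma adjusted p = 0.92).

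Of 21 chemokines, Ccl17, Cxcl9 and Cxcl14 were too low to test. Of the other 18, 7 rose and 2 fell in Egr2-MKO, with a median log2 change of 0.55, and 5 had a larger and 2 a lower response than in Egr2-WT. Over all genes, 2.76% rose, 2.07% fell, 1.13% had a larger response and 0.77% a lower one. The 4 monocyte-attracting genes above were among the 5. In Egr2-WT after IL-4, Ccl8 stood at 140 and 140 TPM, Ccl7 at 198 and 218 TPM, Ccl12 at 40.5 and 47.7 TPM and Ccl2 at 208 and 233 TPM, each below both Egr2-MKO libraries. The difference of the responses was 2.34 for Ccl8 (SE 0.25, limma adjusted p = 9.4e-05), and 1.32 for Ccl7, 1.42 for Ccl12 and 1.32 for Ccl2. That of Ccl12 missed the threshold without the first basal or first 24-hour Egr2-MKO library (limma adjusted p = 0.0822 and 0.0716) and without the second basal or first 24-hour Egr2-WT library (limma adjusted p = 0.0829 and 0.0808). The C57 cells with intact Egr2 described further on had log2 changes of 1.09 and 4.23 for Ccl8 and 4.95 and 5.43 for Ccl7. For Ccl12 they were 2.47 and 4.57 and for Ccl2 2.81 and 3.65, in the time course and the comparison of strains. In Egr2-MKO the 4 changes were 5.3, 6.31, 6.11 and 4.76, in the same order. The fifth with a larger response was Ccl4, and the lower ones were Ccl22 and Ccl6. Of these, Ccl4 and Ccl6 are named for their values. Ccl6 had 102 and 94.1 TPM in basal Egr2-MKO cells and 161 and 154 TPM after IL-4, and went from 108 and 97.6 TPM to 442 and 463 TPM in Egr2-WT (difference -1.45, limma adjusted p = 2.8e-06).

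The list of inflammatory receptors, cytokines and acute-phase genes held the most falls. Of 35 tested, 14 fell, 4 rose and 17 were not called, with a median log2 change of -0.82. The Egr2-WT counts were 17 and 4, with a median of -0.95. Besides Cx3cr1, Fpr1, Hp and Fpr2, the genes that fell included Cd14 and Tlr2, receptors for bacterial products that are named here because of their values. Cd14 went from 372 and 395 TPM to 112 and 105 TPM and Tlr2 from 109 and 99.0 TPM to 27.0 and 22.5 TPM. Their log2 changes of -1.81 and -2.03 stood beside -1.81 and -1.98 in Egr2-WT. Not all members were so alike. Of the 35, the difference of the responses was called higher in Egr2-MKO for 3 and lower for 1, and 31 had no called difference. At an adjusted p under 0.05 with no minimum fold, 6 were higher and 5 lower, where 8.78% and 3.85% of all genes were.

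Among 21 genes of matrix metalloproteinases, their inhibitors and other matrix proteins, 4 rose and 5 fell in Egr2-MKO, and 8 and 2 did in Egr2-WT. Tested directly, the response was lower in Egr2-MKO for 3 of them and larger for 1. With a pseudocount of 5 TPM the calls became 4 and 2 in Egr2-MKO and 5 and 1 in Egr2-WT. Mmp12, the macrophage elastase, went from 267 and 265 TPM to 584 and 729 TPM in Egr2-MKO and from 1253 and 1334 TPM to 3697 and 3741 TPM in Egr2-WT. The difference between its log2 changes of 1.29 and 1.52 did not pass the test (-0.23, SE 0.12, limma adjusted p = 0.26), and the Egr2-MKO libraries after IL-4 were below the basal Egr2-WT libraries. Mmp8, a neutrophil collagenase also made by macrophages, fell from 124 and 122 TPM to 36.2 and 43.9 TPM, and went from 130 and 139 TPM to 99.8 and 98.9 TPM in Egr2-WT. The difference of the Mmp8 responses was -1.17 (SE 0.11, limma adjusted p = 3.3e-05). Adam8, a membrane protease, rose from 260 and 269 TPM to 774 and 833 TPM, and Plau, the urokinase that activates plasminogen, from 19.4 and 17.1 TPM to 41.6 and 61.1 TPM.

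Of 22 adhesion and fusion genes, 5 rose and 2 fell in Egr2-MKO, and 4 had a lower response than in Egr2-WT. IL-4 is known for making macrophages fuse into giant cells. Atp6v0d2, a subunit of the vacuolar proton pump linked to fusion, rose from 15.7 and 16.5 TPM to 126 and 116 TPM in Egr2-MKO, which is where the basal Egr2-WT cells stood with 126 and 123 TPM. Cdh1, which codes for E-cadherin, rose from 0.126 and 0.066 TPM to 4.88 and 7.14 TPM in Egr2-MKO, 62.6-fold on the ratio of means. In Egr2-WT it went from 0.371 and 0.478 TPM to 17.3 and 17.3 TPM, which is 40.7-fold. Itgal, an integrin of leukocytes, fell from 39.4 and 39.1 TPM to 6.30 and 6.99 TPM.

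The 4 with a lower response were Cdh1, Ocstamp, Dcstamp and Itgax, of which the last 3 are named for their values. With pseudocounts of 0.1 and of 5 TPM the 4 became 2. The log2 difference of -1.03 for Cdh1 (limma adjusted p = 0.044) rests on the added 1 TPM, as the ratio of means was larger in Egr2-MKO, and was -0.11 with 0.1 TPM (limma adjusted p = 0.92). It also missed the threshold without any 1 of the 8 libraries compared except the second 24-hour Egr2-MKO one (limma adjusted p = 0.0827 to 0.161). Ocstamp and Dcstamp are membrane proteins required for fusion of osteoclasts. Ocstamp had 0.143 and 0.198 TPM in basal Egr2-MKO cells and 0.419 and 0 TPM after IL-4, against 8.09 and 8.66 TPM in Egr2-WT after IL-4 (difference -3.14, limma adjusted p = 5.9e-05). Dcstamp ended at 0.647 and 0.761 TPM in Egr2-MKO and at 4.06 and 4.08 TPM in Egr2-WT, and its difference missed the threshold without the second basal Egr2-MKO, the first basal Egr2-WT or the first 24-hour Egr2-WT library (limma adjusted p = 0.0524, 0.0591 and 0.0504). Itgax, the integrin chain CD11c, went from 2.45 and 2.25 TPM to 6.83 and 7.25 TPM in Egr2-MKO and from 25.4 and 25.8 TPM to 159 and 164 TPM in Egr2-WT.

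In the list of MHC class II and costimulation genes, 4 of 17 rose and 1 fell. Pdcd1lg2 (PD-L2) and Cd274 (PD-L1), the ligands of the inhibitory receptor PD-1 on T cells, both rose. Pdcd1lg2 went from 0.328 and 0.255 TPM to 18.4 and 15.1 TPM, and Cd274 from 77.7 and 72.7 TPM to 197 and 198 TPM. Cd40, a costimulatory receptor, rose from 4.58 and 5.15 TPM to 10.5 and 13.3 TPM, and Tnfsf4, the ligand of OX40, fell from 5.74 and 3.85 TPM to 0.680 and 0.571 TPM. In the glycolysis and hypoxia list, 1 of 24 was called, the growth factor gene Vegfa, which fell from 44.7 and 47.5 TPM to 17.5 and 17.3 TPM.

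**Figure D2:**
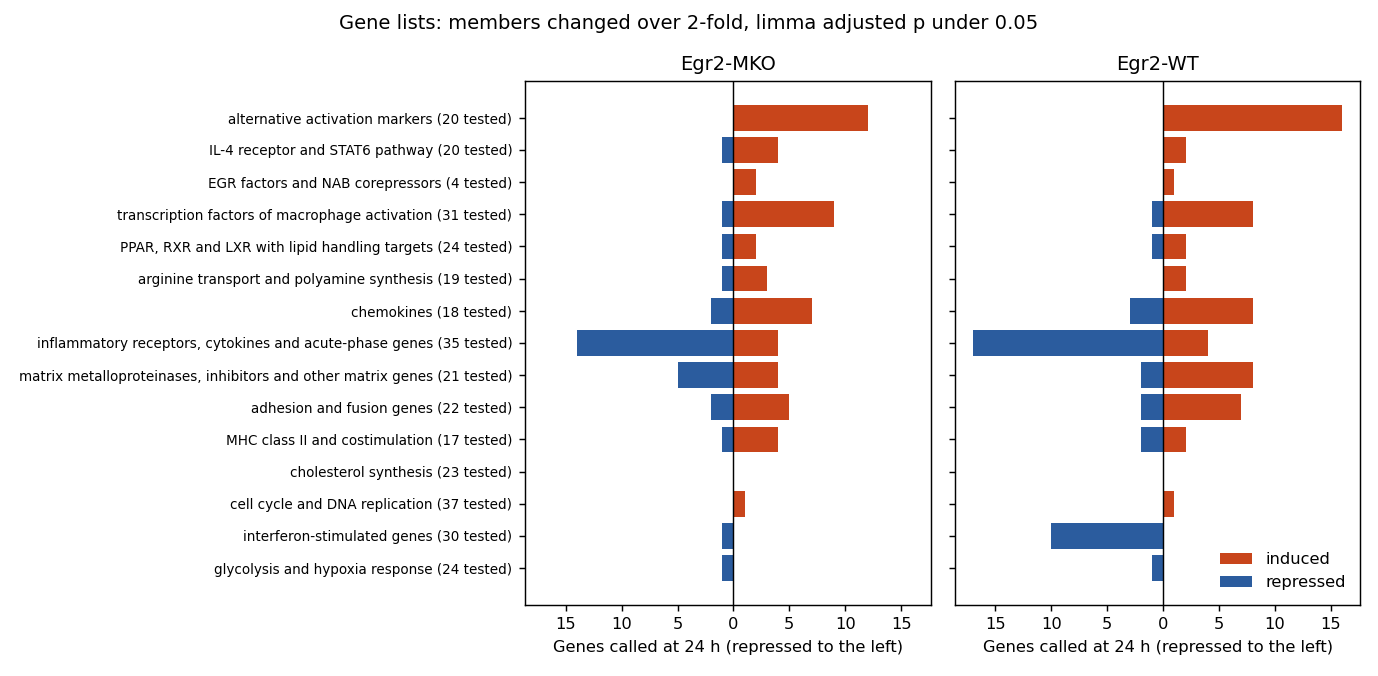
Number of genes called induced (orange, to the right) and repressed (blue, to the left) after 24 hours of IL-4 in each gene list, for Egr2-MKO on the left and Egr2-WT on the right, with the number tested beside each name. Alternative activation markers have the most induced genes, 12 in Egr2-MKO and 16 in Egr2-WT, or 12 and 13 with a pseudocount of 5 TPM. The interferon list goes from 10 repressed genes in Egr2-WT to 1 in Egr2-MKO.

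Cell cycle genes and interferon-stimulated genes had small changes that many members shared. Of 37 cell cycle and DNA replication genes, 26 were higher after IL-4 in Egr2-MKO and none lower at an adjusted p under 0.05 with no minimum fold, with a median log2 change of 0.43 against 0.05 over all genes. In Egr2-WT 3 were higher and 20 lower, with a median of -0.29, where 12.0% of all genes were higher and 18.2% lower by the same rule. The difference of the responses was higher in Egr2-MKO for 25 genes and lower for none, where 8.78% of all genes were higher and 3.85% lower. Over 2-fold, 8 of the 37 had a called difference, all higher in Egr2-MKO, where 1.13% of all genes were called higher. When libraries were rescaled by the median of gene ratios or by quantile normalization, 2 had one. The median response over the list kept its sign in each genotype under both scalings.

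The only cell cycle gene that rose over 2-fold was Ccnd1, which codes for cyclin D1, from 8.89 and 8.12 TPM to 23.2 and 31.3 TPM, and it also rose in Egr2-WT. Mki67, the proliferation marker Ki-67, is given as an example chosen for its values. It had 37.0 and 34.8 TPM in basal Egr2-MKO cells and 53.8 and 55.1 TPM after IL-4, against 50.1 and 50.8 and then 33.3 and 37.3 TPM in Egr2-WT. The basal level was thus higher in Egr2-WT and the level after IL-4 higher in Egr2-MKO. The median level over the 37 genes was 18.9 and 19.3 TPM in basal Egr2-MKO libraries and 26.2 and 26.5 TPM after 24 hours, against 21.9 and 22.4 and then 17.3 and 19.3 TPM in Egr2-WT.

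Of 30 interferon-stimulated genes, which antiviral interferons switch on, 1 fell over 2-fold in Egr2-MKO and 10 in Egr2-WT. With no minimum fold, 12 were lower in Egr2-MKO, where 11.8% of all genes were, and 28 in Egr2-WT, where 18.2% were. A higher response in Egr2-MKO was found for 21, against 8.78% of all genes. The median log2 change was -0.23 in Egr2-MKO and -0.86 in Egr2-WT. A higher response over 2-fold was called for 7 genes, against 1.13% of all genes, and for 4 under either rescaling. Ifit3, an antiviral protein, was the gene that fell, from 42.5 and 37.8 TPM to 16.4 and 17.6 TPM in Egr2-MKO, and it went from 9.45 and 11.4 TPM to 1.68 and 1.57 TPM in Egr2-WT. The median level over the list was 47.1 and 44.3 TPM in basal Egr2-MKO libraries and 22.5 and 25.5 TPM in basal Egr2-WT libraries, so the genotypes already differed in level before IL-4.

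**Figure D3:**
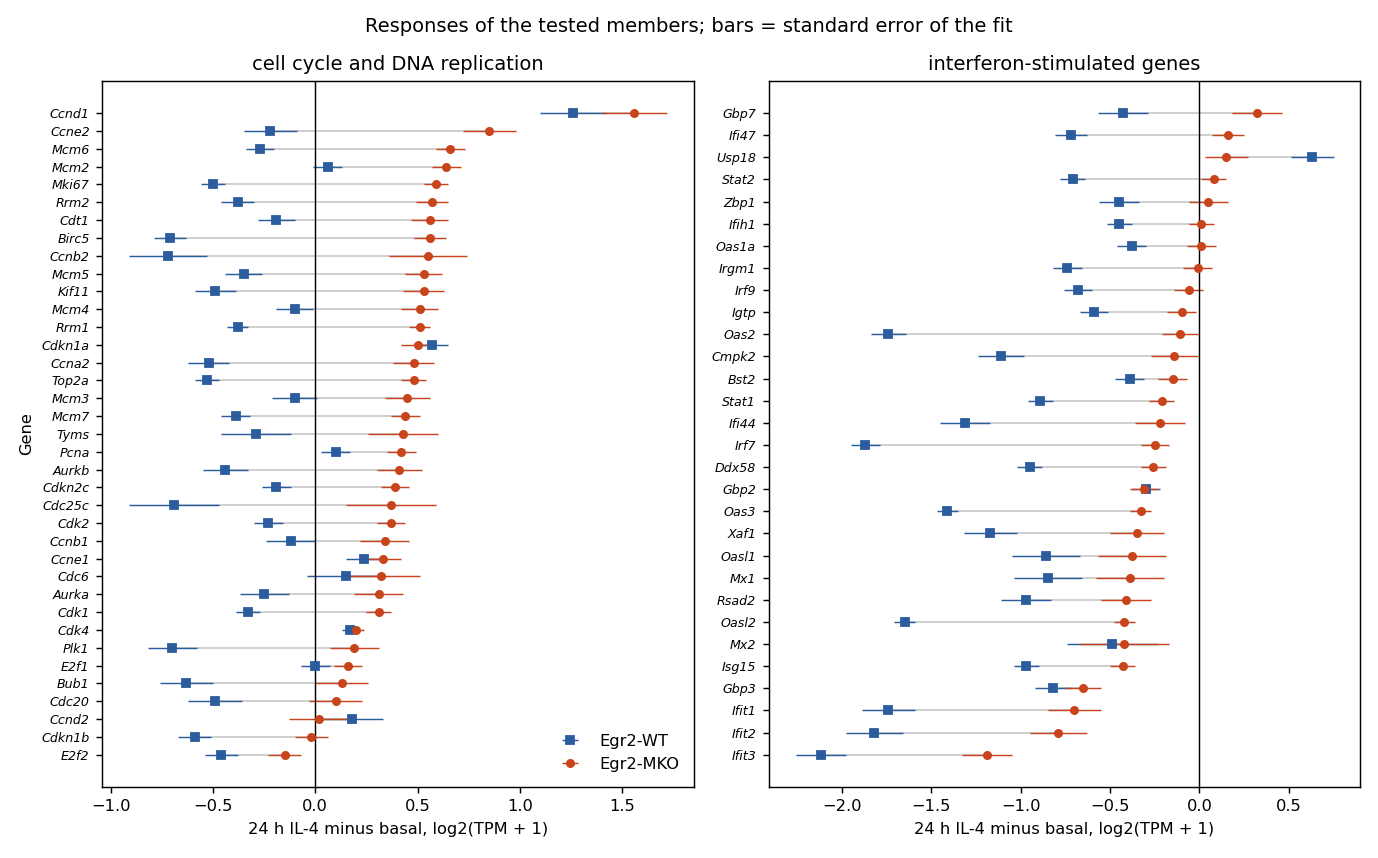
Log2 change after 24 hours of IL-4 (x axis) of each tested member of the cell cycle list (left, 37 genes) and the interferon list (right, 30 genes), in Egr2-MKO (orange circles) and Egr2-WT (blue squares) with the SE of the fit as bars. The medians are 0.43 and -0.29 for the cell cycle list and -0.23 and -0.86 for the interferon list.

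The same test in Egr2-WT cells called 279 genes induced (2.31%) and 246 repressed (2.04%). Of these, 174 were also induced in Egr2-MKO, which is 52.3% of the Egr2-MKO genes and 62.4% of the Egr2-WT genes, and 133 were repressed in both (53.2% and 54.1%). No gene was called in opposite directions. The responses rest on separate libraries but on the same table and fit. Being called in a single genotype is not a difference, so the difference of the responses was tested directly.

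The response was lower in Egr2-MKO for 93 genes (0.77%) and higher for 137 (1.13%). The median of this difference over all genes was 0.10, and when libraries were rescaled by the median of gene ratios 125 were lower and 89 higher, and by quantile normalization 109 and 100. Of the 279 genes induced in Egr2-WT, 48 (17.2%) had a lower response in Egr2-MKO, 26 (9.32%) a larger one and 205 (73.5%) no called difference. At an adjusted p under 0.05 with no minimum fold, 77 of the 279 were lower, 55 higher and 147 neither. Among the 105 that were induced in Egr2-WT and not called in Egr2-MKO, 39 had a lower response and 66 no called difference. Conversely, of 159 genes induced in Egr2-MKO and not called in Egr2-WT, 44 had a larger response in Egr2-MKO and 115 no called difference. The 279, the 105 and the 159 genes were all chosen on libraries that also enter the difference. The choice itself favours these directions, so the direction within each set adds no evidence. The count of 48 genes was lower in every fit without 1 library, where the genes induced in Egr2-WT were called anew.

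**Figure D4:**
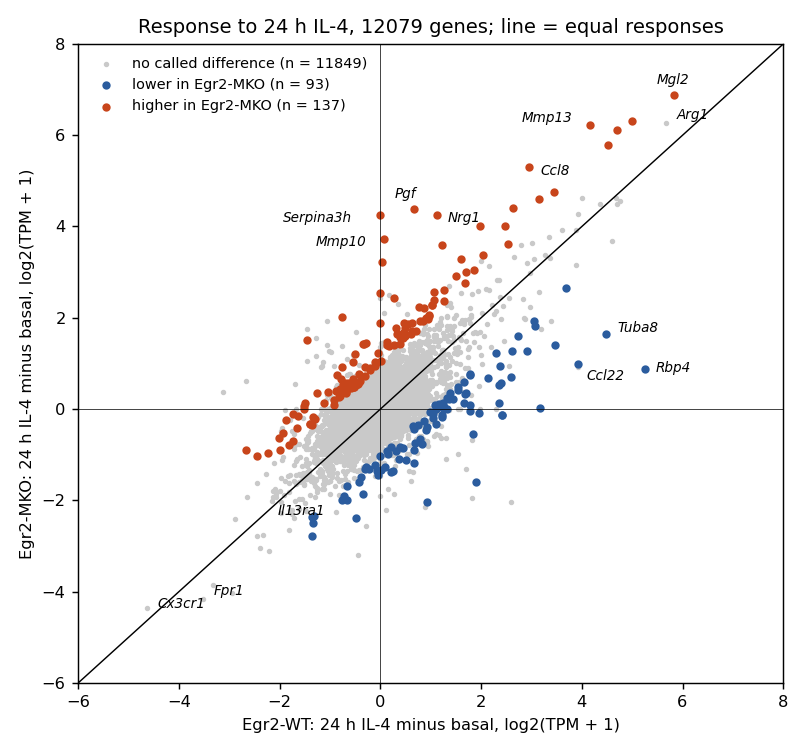
Log2 change after 24 hours of IL-4 in Egr2-WT (x axis) and Egr2-MKO (y axis) for the 12079 genes tested, with the line of equal responses. Blue points are the 93 genes whose response was lower in Egr2-MKO and orange points the 137 whose response was higher; Arg1 has no called difference, Rbp4 sits far below the line, and Serpina3h, Mmp10, Pgf and Nrg1 sit above it with log2 changes of at most 1.12 in Egr2-WT.

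Among genes induced in Egr2-WT that reached a mean of at least 10 TPM in 1 of the 4 groups, the 6 with the largest shortfall were Rbp4, Ccl22, Tuba8, Gsta2, Myrf and Bex1. Rbp4, which carries retinol in blood and whose promoter stretch is printed above, had 0.101 and 0 TPM in basal Egr2-MKO cells and 0.887 and 0.994 TPM after IL-4. In Egr2-WT it went from 0.296 and 0 TPM to 44.8 and 40.2 TPM. The difference of -4.37 on the log2 scale (SE 0.27, limma adjusted p = 2.4e-06) put it first among these genes. The rise within Egr2-MKO, 0.89 on the log2 scale, was under the 2-fold limit with 1 TPM added. In Egr2-MKO the ratio of means was 18.6-fold, from values that stayed under 1 TPM, against 287-fold in Egr2-WT. Over the alternatives the log2 rise in Egr2-MKO ran from 0.23 to 2.87.

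Ccl22, a chemokine that attracts T helper 2 and regulatory T cells, had 2.42 and 1.62 TPM in Egr2-MKO after IL-4 and 16.5 and 14.4 TPM in Egr2-WT (difference -2.93, limma adjusted p = 4.4e-05). Tuba8, an alpha tubulin, had 2.24 and 2.38 TPM and 23.8 and 21.6 TPM in the same groups (difference -2.84, limma adjusted p = 1.1e-05). Gsta2, a glutathione transferase with close relatives that may share reads, had 2.58 and 1.95 TPM and 17.7 and 16.3 TPM. In all 6 genes both Egr2-MKO libraries after IL-4 lay below both Egr2-WT libraries. The genes were chosen by the size of the called difference in these libraries, so such separation adds no evidence. Myrf, a membrane-bound transcription factor known from myelin formation, ended at 0.538 and 1.25 TPM in Egr2-MKO and 21.6 and 18.7 TPM in Egr2-WT. Bex1, a small adaptor protein, ended at 0.950 and 0.426 TPM and 15.1 and 15.1 TPM. Myrf and Bex1 were already lower under basal conditions, with at most 0.150 and 0.324 TPM in Egr2-MKO and at least 2.34 and 2.04 TPM in Egr2-WT. With a pseudocount of 0.1 TPM, the difference no longer passed the test for Gsta2, Myrf and Bex1 (limma adjusted p = 0.264, 0.226 and 0.59).

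By the same minimum level, the 4 largest excesses were Serpina3h, Pgf, Mmp10 and Nrg1. Serpina3h, a serine protease inhibitor in a cluster of near-identical genes, went from 0.136 and 0.236 TPM to 22.5 and 20.5 TPM in Egr2-MKO and was listed at 0 in all basal and 24-hour Egr2-WT libraries. It was at 76.9 and 75.9 TPM after 6 hours in Egr2-MKO. The log2 changes of Serpina3h in C57 cells with intact Egr2, from the time course and the comparison of strains described further on, were 0.02 and 0.09, and as reads can be split among its copies the value is uncertain. Pgf, the placental growth factor, went from 0.296 and 0.461 TPM to 25.8 and 29.6 TPM and ended at 1.78 and 1.49 TPM in Egr2-WT (difference 3.71, SE 0.39, limma adjusted p = 8.4e-05). Mmp10, the metalloproteinase stromelysin-2, went from 0.054 and 0.056 TPM to 10.4 and 16.2 TPM and ended at 0.162 and 0.182 TPM in Egr2-WT. Nrg1, the growth factor neuregulin, went from 0.133 and 0.138 TPM to 22.5 and 18.7 TPM and ended at 1.47 and 2.32 TPM. For all 4 genes the Egr2-MKO libraries after IL-4 were above all basal and 24-hour Egr2-WT libraries. They too were chosen by the size of the called difference, so this adds no evidence. In the same C57 cells the log2 change of Pgf was 0.58 and 3.53 and that of Nrg1 1.60 and 2.77, and Mmp10 was not tested in either table. The induction of Pgf in the second table and of Nrg1 in both was called, so a rise of these genes was also measured in cells with Egr2.

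Among the largest rises and falls, the response also differed by over 2-fold for Mmp13, Msx3, Mgl2, Mgst2 and Ptges. Under the 2-fold limit it was lower in Egr2-MKO for Gsta3 (-0.88), Fpr1 (-0.62) and Clec4n (-0.42), with limma adjusted p = 0.0058, 0.023 and 0.013. The difference for Fpr1 missed the threshold under 7 of 17 alternatives and that for Clec4n under 2. Mmp13 ended at 75.8 and 73.9 TPM in Egr2-WT, below the 177 and 263 TPM of Egr2-MKO (difference 2.05, SE 0.22, limma adjusted p = 9.9e-05). Msx3 ended at 36.8 and 37.4 TPM in Egr2-WT (difference 1.27, limma adjusted p = 0.00026). Mgl2 ended at a like level in both genotypes, 251 and 248 TPM in Egr2-WT, and the difference of 1.04 (limma adjusted p = 0.036) came with a lower basal level in Egr2-MKO. It missed the threshold without any 1 of the 8 libraries except the first basal Egr2-MKO and the second basal Egr2-WT ones (limma adjusted p = 0.0698 to 0.146). Mgst2, a microsomal glutathione transferase, went from 32.2 and 34.7 TPM to 3.71 and 4.28 TPM in Egr2-MKO and from 48.9 and 56.2 TPM to 22.3 and 17.6 TPM in Egr2-WT (difference -1.43, limma adjusted p = 0.0076). Ptges, which makes prostaglandin E2 and holds the other printed STAT6 site, went from 17.4 and 16.7 TPM to 2.47 and 1.91 TPM in Egr2-MKO and from 10.0 and 9.23 TPM to 3.56 and 2.88 TPM in Egr2-WT (difference -1.17, limma adjusted p = 0.0023). In C57 cells with intact Egr2, the log2 change was -2.42 and -2.73 for Ptges and -1.79 and -1.17 for Mgst2, beside -2.50 and -2.79 in Egr2-MKO and -1.33 and -1.36 in Egr2-WT. The fall of Ptges in C57 cells was thus nearer to that in Egr2-MKO, in tables that were normalised separately. Btbd11, a protein with ankyrin repeats that was on the list of genes to name, stayed under 1 TPM in Egr2-MKO at 0.378 and 0.476 TPM and reached 1.19 and 1.33 TPM in Egr2-WT, and the difference did not pass the test (limma adjusted p = 0.17).

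**Figure D5:**
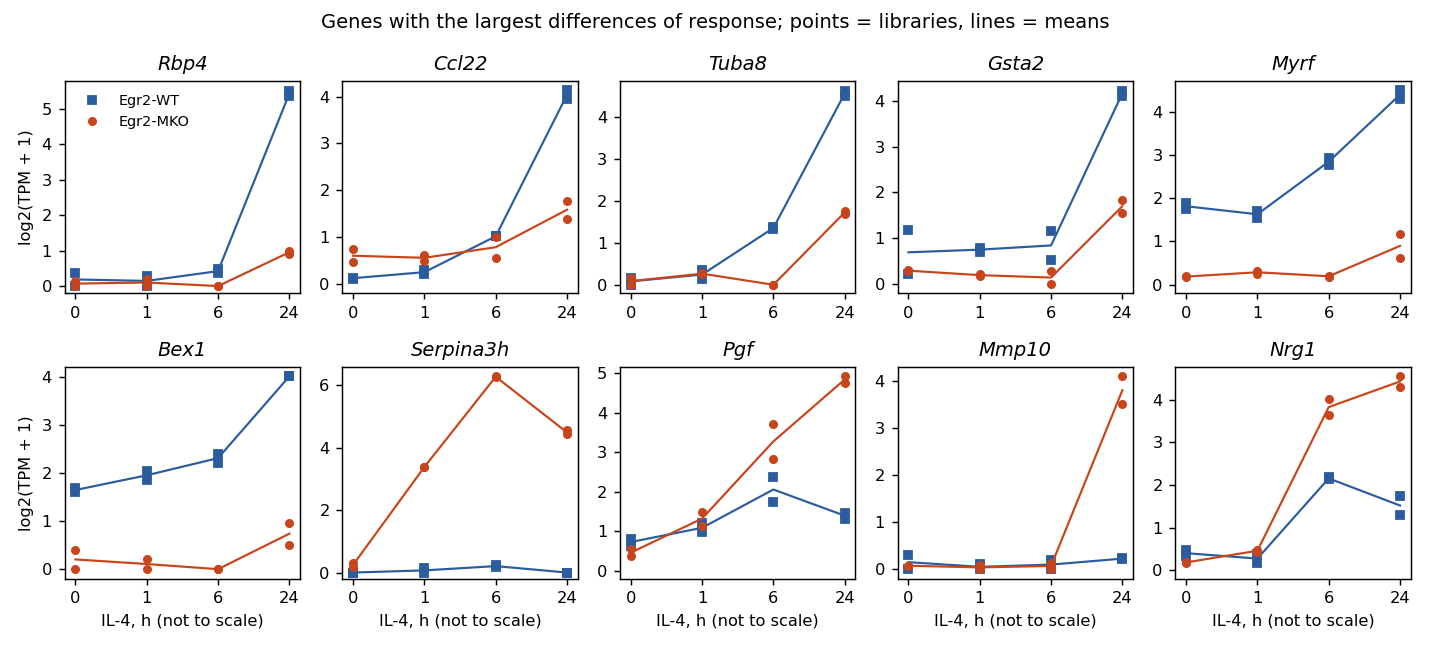
Expression (log2(TPM + 1)) at 0, 1, 6 and 24 hours of IL-4 (spacing not to scale) of the 6 genes with the largest shortfall and the 4 with the largest excess in Egr2-MKO among genes that reached a mean of at least 10 TPM (orange circles), beside Egr2-WT (blue squares); points are libraries and lines are means. Rbp4 is under 1 TPM in Egr2-MKO at every time and at 44.8 and 40.2 TPM in Egr2-WT at 24 hours, while Serpina3h was already at 9.43 and 9.45 TPM in Egr2-MKO at 1 hour.

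C57 BMDMs with intact Egr2 were measured after 24 hours of IL-4 in 2 other tables, made from separate libraries and normalised separately. In the C57 time course 344 genes (2.85% of 12088) were induced and 352 (2.91%) repressed, and in the C57 cells of the comparison of 5 strains 271 (2.28% of 11907) were induced and 182 (1.53%) repressed. Of the genes induced in Egr2-MKO that were tested there, 151 of 308 (49.0%) were induced in the time course and 175 of 300 (58.3%) in the comparison of strains. These are 45.3% and 66.3% of the C57 genes induced there that were also tested in the Egr2 table. Of the genes repressed in Egr2-MKO, 131 of 247 (53.0%) and 96 of 244 (39.3%) were repressed in the C57 tables, which is 37.4% and 54.2% of the C57 genes. The genes induced in Egr2-MKO had a median log2 change of 0.97 and 1.18 in C57 cells and the repressed genes -1.04 and -0.86, against -0.02 and -0.04 over all genes. In the time course 1 gene was called in the opposite direction among the induced ones, and in the comparison of strains 1 among the repressed ones. The strain of the Egr2 mice is not given in the sources used here.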

How the data were processed

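Poly(A) RNA-seq libraries of mouse BMDMs were compared within the table of the Egr2 experiment. The authors aligned reads with STAR to mm10 and counted exons of condensed genes with HOMER, and deposited TPM values per gene and library. A library's TPM summed to between 606226 and 622741 over the genes listed. The table also holds the authors' DESeq2 fold changes and p-values, which were not used. No read counts are given, so counting intervals could not be computed and precision comes from replicates.

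Values were transformed to log2(TPM + 1), and the genes that reached 1 TPM in 2 or more libraries were fitted with limma 3.58.1 (trend, 1 mean per group, 16 libraries) in R 4.3.3. Contrasts were 24 hours minus basal in each genotype and their difference. The 2 C57 tables were fitted the same way, each on its own, and share no library with the Egr2 table. Summaries and figures were made with Python 3.11.15, pandas 2.3.3 and matplotlib 3.10.9. Human and F1 tables were not analysed here.

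Groups came from the sample titles. The comparison, the lists and the rule for naming genes were chosen with earlier results of these data known. The genes named are Egr1 to Egr4, Nab1 and Nab2, the 10 largest rises and falls with separate libraries and at least 10 TPM in the higher group, up to 4 called members of each list, the 6 largest shortfalls and 4 largest excesses between genotypes with a group mean of at least 10 TPM, and Arg1, Slc7a2, Msx3, Mmp12, Klf4, Irf4 and Btbd11. Others are said to be named for their values.

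On simulated data with 200 genes changed by 2 on the log2 scale, among 12079 genes, the Egr2-MKO contrast recovered 99.5%, and 2 unchanged genes were called. That is a 4-fold change, which 89 of the 333 induced and 31 of the 250 repressed genes exceeded. The simulation gives no recovery for smaller changes or for differences between genotypes. The alternatives were pseudocounts of 0.1 and 5 TPM, no filter and a filter at 5 TPM, rescaling by the median of gene ratios, quantile normalization, a robust prior, only the libraries compared, a replicate block, and leaving out each library.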

Additional observations from a re-analysis of the deposited data

Results flagged for a closer look

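For 22 of the genes named, the response to 24 hours of IL-4 differed between Egr2-MKO and Egr2-WT by over 2-fold in limma's test of the difference, with 11 lower and 11 higher in Egr2-MKO. Of the genes lower in Egr2-MKO, the difference on the log2 scale was -4.37 for Rbp4, -2.93 for Ccl22, -2.84 for Tuba8, -2.07 for Gsta2, -1.87 for Myrf and -1.83 for Bex1. All of these are genes that IL-4 induced in Egr2-WT, as the rule for choosing them required. It was -1.43 for Mgst2, -1.33 for Il13ra1, -1.17 for Ptges and -1.17 for Mmp8, which all fell over 2-fold in Egr2-MKO, and -1.03 for Cdh1, whose ratio of means was larger in Egr2-MKO (62.6-fold) than in Egr2-WT (40.7-fold). The difference for Cdh1 missed the threshold under 11 of 17 alternatives, that for Mgl2 under 9 and that for Ccl12 under 6. Of the genes higher in Egr2-MKO, it was 4.25 for Serpina3h, 3.71 for Pgf, 3.66 for Mmp10 and 3.13 for Nrg1. It was 2.34 for Ccl8, 2.05 for Mmp13, 1.42 for Ccl12, 1.32 for Ccl7, 1.32 for Ccl2, 1.27 for Msx3 and 1.04 for Mgl2, all of which rose in both genotypes.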

How the results depend on the processing

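Of 2099 combinations of an alternative and a named gene's change in Egr2-MKO or difference between genotypes, 1999 kept their side of the 0.05 threshold on the adjusted p, 79 lost significance and 21 gained it, and none past the threshold changed sign. Of those lost, 7 concern the change of Apoc2, Rbp4 and Myrf in Egr2-MKO. The others concern differences, most often for Cdh1 and Ear2 (11 alternatives each), Mgl2 (9), Fpr1 (7), and Ccl12, Pparg and Cd36 (6 each). The pseudocount had the largest effect on counts. With 5 TPM in place of 1 TPM, Egr2-MKO had 205 induced and 117 repressed genes and Egr2-WT 160 and 122, with 104 induced and 66 repressed in both. The difference of responses was then lower in 36 and higher in 62 genes, and 20 genes induced in Egr2-WT had a lower response in Egr2-MKO. Of the genes repressed in Egr2-MKO, 75 were called in the C57 time course and 60 in the C57 cells of the 5 strains. The count of 48 genes induced in Egr2-WT with a lower response became 26 when 0.1 TPM was added before the log and 28 when genes had to reach 5 TPM. Rescaling by the median of gene ratios left 89 genes with a higher response in Egr2-MKO and 125 with a lower one, and raised the share of induced genes among the calls in Egr2-WT from 53.1% to 60.1%. The construction of these scalings sets the median change near 0, where the values as deposited gave 0.0469 in Egr2-MKO and -0.0481 in Egr2-WT.

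Leaving out 1 library at a time gave 318 to 342 induced and 241 to 262 repressed genes in Egr2-MKO, and 30 to 41 genes induced in Egr2-WT with a lower response, lowest without the second 24-hour Egr2-WT library. The cause was not tested. With the lone library of a group, its spread is assumed to be that of the other groups.

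With a replicate block, Egr2-MKO had 334 induced and 250 repressed genes, Egr2-WT 278 and 246, and the difference 133 higher and 89 lower. Libraries of the same number did not deviate together: over 28 pairs of groups the correlation of their deviations ran from -0.139 to 0.0565, so the numbers were not taken as a pairing. Having 2 libraries a group, no read counts and a basal library of 4.69 M tags limit what can be said of genes near 1 TPM.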
